A study of Homo sapiens with 22 samples.

Results

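The MYC and PVT1 locus was read as the window chr8:128600000-129200000 of the human build hg19, a stretch of 600 kb that holds the MYC start site at position 128748315 and the PVT1 start site at position 128806779, 58.5 kb further along the chromosome. Every peak overlapping the window by at least 1 bp was a member. That gave 451 peaks of 508791 in 22 libraries, namely 51 SMARCA4, 75 SMARCC1, 323 H3K27ac and 2 HA peaks. The window is set by position, but the locus was chosen from these same lists with its peaks in view. Its peak numbers and shares are therefore descriptions and carry no test.

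MYC encodes a transcription factor that drives cell growth, metabolism and division, and its dose is limiting in many carcinomas. PVT1 is the neighbouring long non-coding RNA gene. It hosts several microRNAs, and its promoter and body hold enhancers that can contact the MYC promoter. BAF is a chromatin remodeler that moves or evicts nucleosomes. SMARCA4 is an ATPase subunit, SMARCC1 is a core scaffold subunit, and ARID1A is a large subunit that carries a DNA-binding ARID domain and long disordered regions. A SMARCA4 or SMARCC1 peak is called a BAF peak below, and by itself it does not show that ARID1A was present. H3K27ac is the acetylation of histone H3 found at active promoters and enhancers.

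The cells were AN3CA, a human endometrial carcinoma line known for loss of ARID1A, although the labels do not state its own ARID1A status. CUT&Tag maps a protein or mark by letting an antibody tether a transposase that cuts and tags the DNA beside it. All libraries came from AN3CA cells that carried an introduced construct. Empty cells carried an empty vector and gave 2 replicates per antibody, called Empty 1 and Empty 2. The other constructs were ARID1A wild-type (WT), the ARID domain mutant DBDmut, the truncations delIDR1 and CBR, and the DDX4 IDR hybrid, in which the label names a disordered region of DDX4 within ARID1A. Each of these 5 forms gave 1 library per antibody for SMARCA4, SMARCC1 and H3K27ac, and the HA library, against the epitope tag, was from the DDX4 hybrid. No construct other than Empty had a replicate, the labels do not say whether the Empty replicates were separate cultures, and no library here measured how much of each ARID1A form the cells made. Cell identity could not be checked against marker genes, because no hg19 gene annotation was used here.

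A peak is reported by its distance in kb from the MYC start, negative towards lower coordinates, and by the number of fragments at its summit, recovered from the fold and p-value that the authors gave it. Fragment numbers depend on depth. The estimated depth ran from 0.916 to 1.95 fragments per kb for SMARCA4, from 1.33 to 3.28 for SMARCC1 with WT the deepest, from 3.59 to 14.5 for H3K27ac with Empty 2 the deepest, and was 0.462 for HA. Ranks place a peak by its q-value within its own list only. The peak identifiers carry 3 stamps, 1 for Empty 1, WT, DBDmut, delIDR1 and CBR, 1 for DDX4 and 1 for Empty 2, and the labels do not say what the stamps stand for.

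BAF peaks were most numerous in the locus in WT cells. SMARCA4 peaks numbered 1 in Empty 1, 3 in Empty 2, 19 in WT, 13 in DBDmut, 8 in CBR, 4 in delIDR1 and 3 in DDX4. SMARCC1, the scaffold subunit, had 5 peaks in Empty 1, 6 in Empty 2, 29 in WT, 14 in DBDmut, 8 in CBR, 8 in delIDR1 and 5 in DDX4. By number of peaks WT was highest and DBDmut next for both subunits, and the Empty libraries were at or near the bottom. Per 10000 peaks of the whole list the SMARCA4 number was 14.7 in WT (Wilson 95% interval 9.40 to 22.9), 8.55 in DBDmut, 6.20 in CBR, 5.61 in delIDR1, 3.42 in DDX4, and 1.80 and 3.19 in the Empty libraries. The same quantity for SMARCC1 was 12.2 in WT (8.47 to 17.5), 7.64 in delIDR1, 7.43 in DBDmut, 6.68 in CBR, 5.16 in DDX4, and 3.67 and 3.88 in Empty. On this scale WT was again highest for both subunits, while for SMARCC1 delIDR1 and DBDmut were close together. The intervals of every mutant and of Empty 1 overlapped that of WT for both subunits, and those of Empty 2 ended just below it. For DBDmut they were 5.00 to 14.6 for SMARCA4 and 4.43 to 12.5 for SMARCC1. Intervals here and below cover counting error only. In a bulk library, more cells with a bound site and more binding per cell cannot be told apart.

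**Figure D1:**
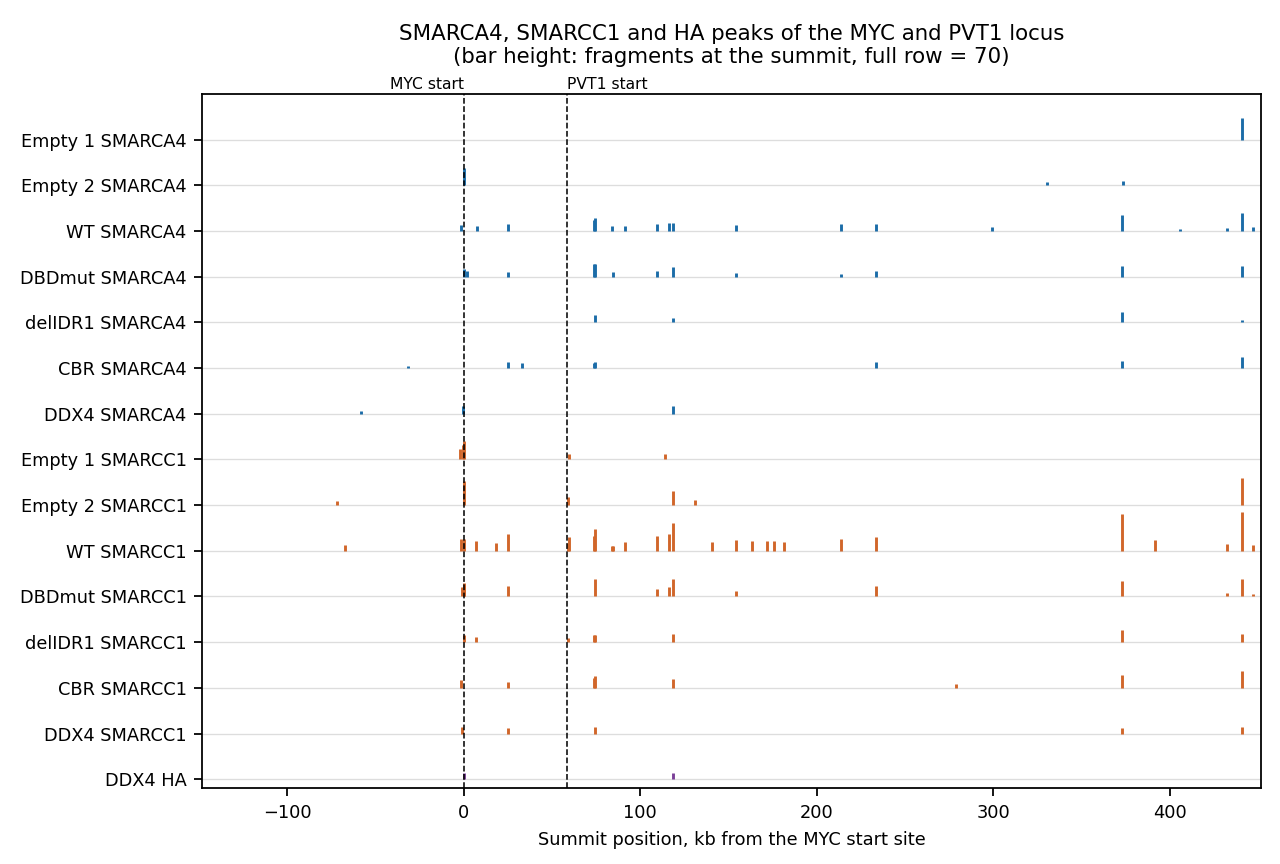
SMARCA4, SMARCC1 and HA peaks along the locus, 1 row per library, against the distance from the MYC start in kb; each bar is 1 peak, placed at its summit, and its height is the number of fragments there on a scale where 70 fills a row. The WT rows hold 19 SMARCA4 and 29 SMARCC1 peaks, and the Empty rows hold 1 and 3 SMARCA4 peaks.

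The locus was peak-rich in WT cells for all 3 antibodies. When the genome was laid out in tiles of 600 kb, counting the locus itself, 12 of the 3207 tiles with any WT SMARCA4 peak held at least 19, and the median tile held 3. For WT SMARCC1, 22 of 3692 tiles held at least 29, against a median of 5. For WT H3K27ac, 56 of 3599 tiles held at least 54, against a median of 11. All WT BAF peaks but 1, a SMARCC1 peak at -67.3 kb, lay between the MYC promoter and the right end of the window. The first WT SMARCA4 peak inside lay 146 kb from the left edge with a -log10 q of 4.01, and the last one before the window was 257 kb outside it. On the other side the last WT SMARCA4 peak inside had a -log10 q of 4.58 and the next one lay 136 kb beyond the end, with 12.2.

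Most WT BAF peaks of the locus had no counterpart in Empty cells. Of the 19 WT SMARCA4 peaks, 17 met no SMARCA4 peak of either Empty replicate, against 63.7% over the whole WT list. Of the 29 WT SMARCC1 peaks, 23 met none, against 57.2%. The shares were 89.5% (exact 95% interval 66.9 to 98.7) and 79.3% (60.3 to 92.0). Empty 1 and Empty 2 each met 1 of the 19 SMARCA4 peaks, against 26.4% and 31.3% of the whole list. They met 3 and 4 of the 29 SMARCC1 peaks, against 34.3% and 38%. Both Empty libraries thus met fewer of the locus peaks than of the WT list as a whole. The upper ends of these 4 intervals, at 26.0%, 26.0%, 27.4% and 31.7%, lay below the whole-list shares. The locus was chosen with these peaks in view and neighbouring peaks are not independent. Here and below, such comparisons therefore describe the window and test nothing.

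DBDmut came nearest to WT. A DBDmut peak met 10 of the 19 WT SMARCA4 peaks (54% of the whole list) and 13 of the 29 SMARCC1 peaks (51.4%). CBR met 6 (38.2%) and 7 (31.5%), and delIDR1 met 4 (35%) and 8 (32.5%). DDX4 met 1 (32.3%) and 4 (29%). The shares for DBDmut, CBR and delIDR1, and for DDX4 SMARCC1, were within counting error of the whole list. That for DDX4 SMARCA4, 5.26% (0.133 to 26.0), was below it.

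Depth was set beside these counts by scaling each WT peak's fragments and background to another library and asking whether it would still pass the lowest -log10 p of that list. Of the 19 WT SMARCA4 peaks, 17 would pass in Empty 1, 17 in Empty 2, 12 in DBDmut, 17 in CBR, 15 in delIDR1 and 13 in DDX4. Of those that would pass, 16, 16, 3, 11, 11 and 13 were not met in these libraries, in the same order, so DBDmut lacked the fewest. Of the 29 WT SMARCC1 peaks, 22 would pass in Empty 1, 27 in Empty 2, 17 in DBDmut, 25 in CBR, 11 in delIDR1 and 11 in DDX4. Of those that would pass, 19, 23, 7, 18, 6 and 7 were not met. These numbers have unlike bases, since only 11 would pass in delIDR1 and in DDX4, against 25 in CBR. The low numbers of delIDR1 and DDX4, 6 and 7 of 11, are therefore most of the peaks that would pass there. Which peaks would pass depends on the scaling, which multiplied WT SMARCC1 fragments by 0.332 for delIDR1 and 0.326 for DDX4. In DBDmut and in delIDR1, 3 WT SMARCC1 peaks each were met although they would not pass. With every list of an antibody trimmed to the length of the shortest by q-value, WT held 8 SMARCA4 peaks in the locus, against 1 in each Empty library, 6 in DBDmut, 5 in CBR, 2 in delIDR1 and 1 in DDX4. For SMARCC1 the trimmed lists held 12 in WT, 2 and 3 in Empty, and 8, 8, 7 and 5 in DBDmut, delIDR1, CBR and DDX4.

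**Figure D2:**
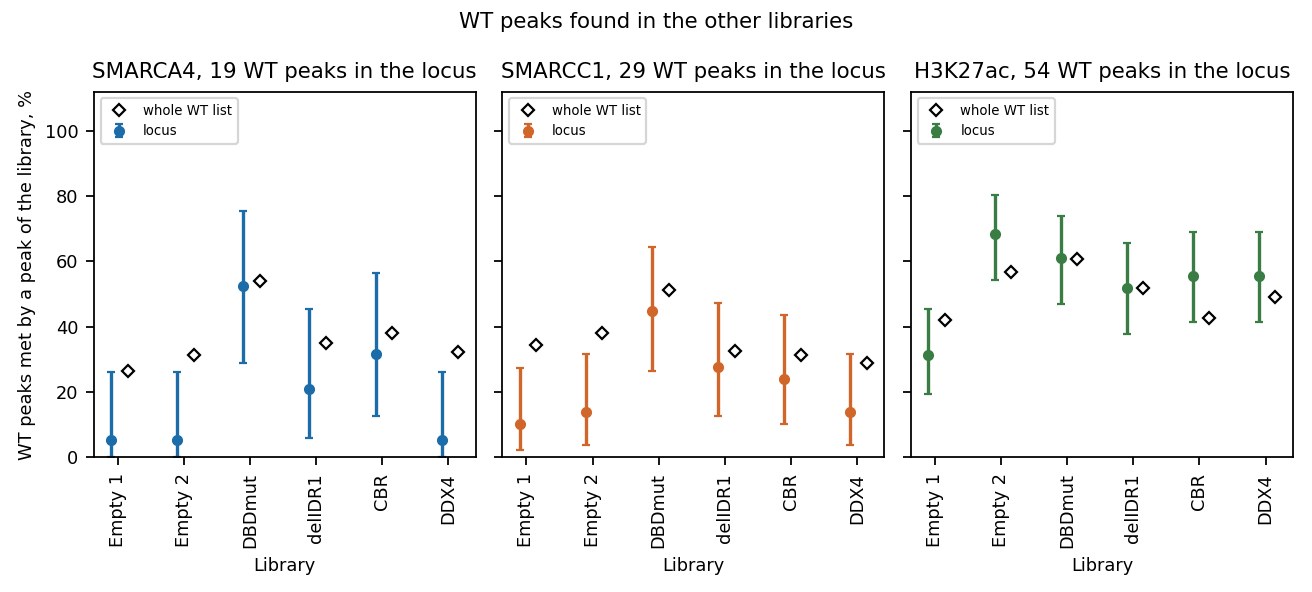
Share of the WT peaks of the locus met by a peak of each other library (filled points, exact 95% intervals for counting error) and the same share over the whole WT list (open diamonds), in percent, for SMARCA4, SMARCC1 and H3K27ac. The Empty points for both subunits lie below the diamonds, while the DBDmut points lie close to them.

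At the MYC promoter BAF peaks were called in Empty cells too, and the tallest ones were theirs. Within 2.5 kb of the MYC start the tallest SMARCA4 peak was that of Empty 2, with 31 fragments at 5 bp from the start and a rank of 1397 of 9409, in the deepest SMARCA4 library. WT had a single SMARCA4 peak of 10 fragments at -1868 bp. DBDmut had 14 fragments at -173 bp and 10 at 1649 bp, and DDX4 had 14 at -708 bp. No SMARCA4 peak was called there in Empty 1, delIDR1 or CBR, so the Empty replicates differed from each other at this promoter.

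SMARCC1 peaks were called at the MYC promoter in all 7 libraries. Empty 1 had 3 peaks of 18, 26 and 33 fragments, and Empty 2 had 1 broad peak of 44. WT had 21 fragments at -1828 bp and 22 at 135 bp, at the highest SMARCC1 depth of the series. DBDmut had 17, 24 and 21, delIDR1 13, CBR 14 and DDX4 11. The 4 tallest SMARCC1 peaks at this promoter were thus 3 from Empty cells and 1 from DBDmut.

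H3K27ac peaks were also called at the MYC promoter in all 7 libraries. Summits held 34 to 56 fragments over 4 peaks in Empty 1 and 64 and 106 in Empty 2. WT had 30, 37 and 43, DBDmut 35 and 41, delIDR1 35 and 25, DDX4 44, and CBR a single peak of 15 that ranked 40323 of 41032. The local background under these acetylation peaks was 6.25 to 20.3 times the lowest background of the library, so their folds were modest, from 2.62 to 5.88. Acetylation at the MYC start was thus called with the empty vector and with every ARID1A form.

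The PVT1 promoter carried acetylation in every library and SMARCC1 in some. No SMARCA4 peak was called within 2.5 kb of the PVT1 start in any of the 7 libraries. SMARCC1 had 10 fragments in Empty 1, 14 in Empty 2, 14 and 25 in WT and 8 in delIDR1, and no peak in DBDmut, CBR or DDX4. The tallest H3K27ac summit lay between 1270 and 1272 bp downstream of the start in all 7 libraries. It held 122 fragments in Empty 1, 157 in Empty 2, 126 in WT, 138 in DBDmut, 54 in CBR, 88 in delIDR1 and 151 in DDX4. The WT value lay close to that of Empty 1. The estimated depth of these libraries was alike (4.48 and 4.40 fragments per kb), but their lowest background was not (0.646 and 0.431). The values can therefore not be taken as matched for depth.

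**Figure D3:**
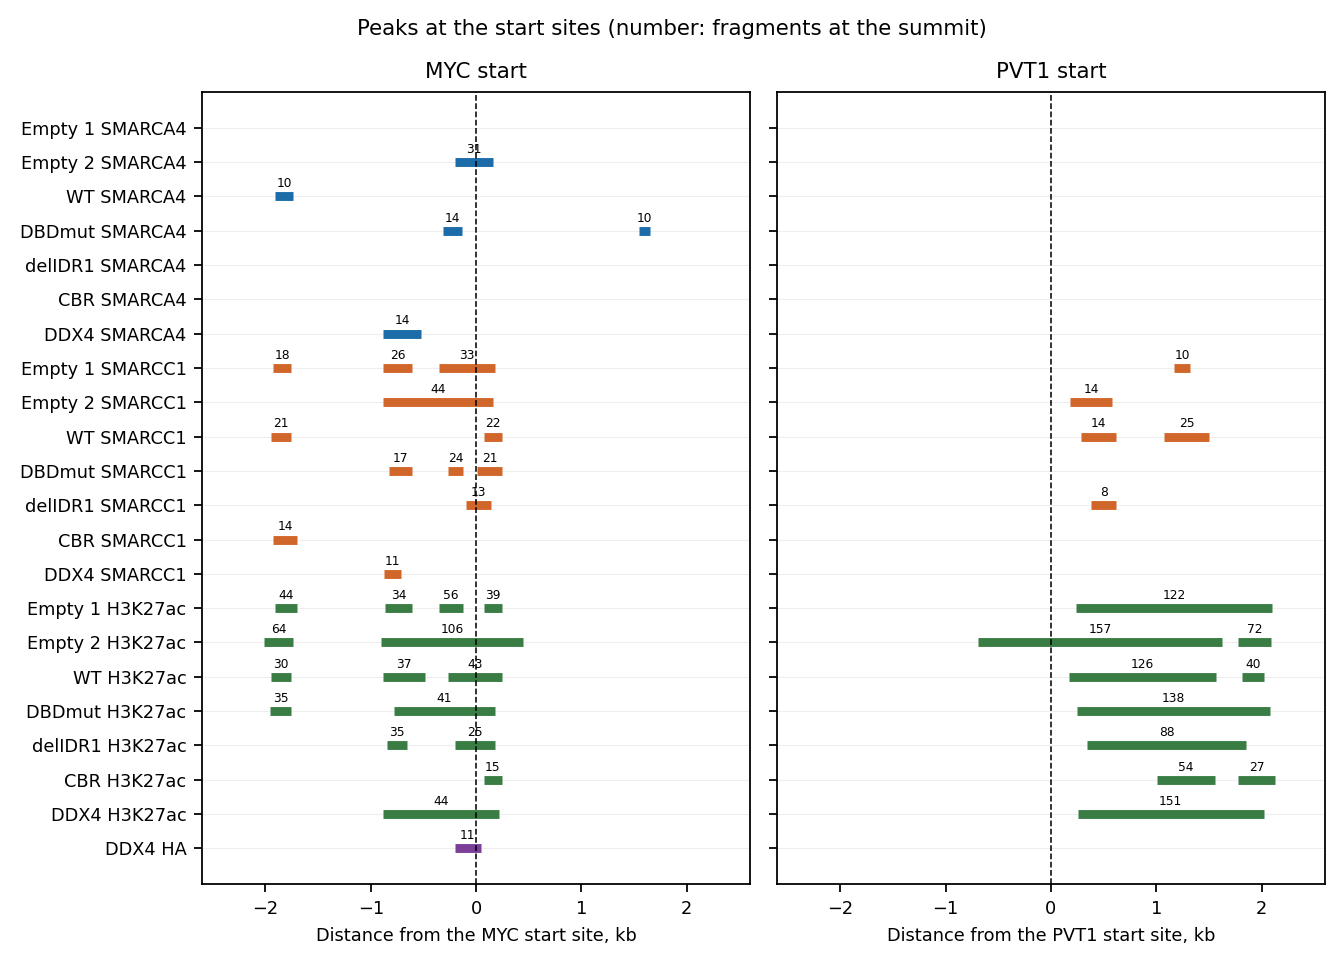
Peaks within 2.5 kb of the MYC start (left) and the PVT1 start (right), 1 row per library, against the distance in kb; bars span the peak and numbers are fragments at the summit. Rows of Empty SMARCC1 and H3K27ac are filled at both starts, and no SMARCA4 bar appears at the PVT1 start.

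Away from the promoters the WT BAF peaks formed a row of distal sites. BAF sites were defined in WT cells by a SMARCA4 peak meeting a SMARCC1 peak, which was the case for 17 of 19 in the locus and for 75.2% of the whole list. The SMARCA4 and SMARCC1 summits of a site lay a median of 55 bp apart (range 0 to 138). Every one of the 17 sites also met a WT H3K27ac peak, with 90.4% for all WT BAF sites, and the acetylation summit lay a median of 13 bp from that of SMARCA4 (range 0 to 485). Only 1 of the 17 sites, at -1.87 kb, lay upstream of MYC. There were 2 between the starts, at 7.18 and 24.9 kb, and 14 beyond the PVT1 start, between 73.8 and 447.2 kb.

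Of these 17 sites, 13 had neither a SMARCA4 nor a SMARCC1 peak in either Empty replicate and are called gained; over the whole WT list this held for 45% of BAF sites. The gained share in the locus was 76.5% (exact 95% interval 50.1 to 93.2). Gained sites lay at 7.18, 24.9, 73.8, 74.15, 83.9, 91.5, 109.5, 116.0, 154.0, 213.8, 233.5, 432.5 and 447.2 kb. The 2 at 73.8 and 74.15 kb shared 1 H3K27ac peak and are not independent. The other 4 sites, at -1.87, 118.3, 373.0 and 441.0 kb, had at least 1 subunit in an Empty library. At none of the 17 sites did an Empty library have both subunits, against 31.3% and 37.2% of all WT BAF sites for Empty 1 and Empty 2.

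**Figure D4:**
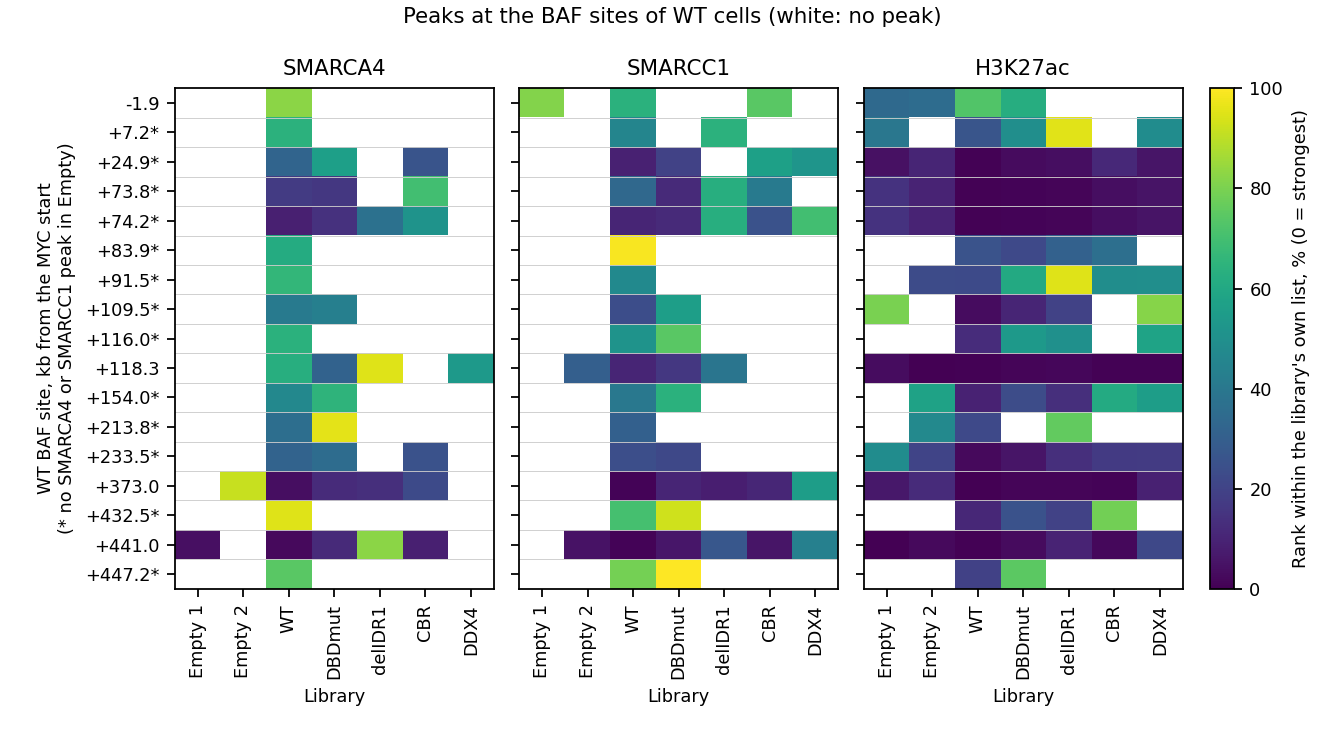
The 17 WT BAF sites of the locus (by distance from the MYC start in kb) against the libraries, 1 panel per antibody; the colour is the rank of the peak within its own list in percent (0 is the strongest), white means that no peak was called, and an asterisk marks a gained site. The Empty columns are white at most sites for SMARCA4 and SMARCC1, while for H3K27ac at least 1 of them is filled at 13 of the 17 sites.

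The gained sites with most SMARCA4 fragments in WT were a pair 15.3 and 15.7 kb downstream of the PVT1 start, at chr8:128821810-128822155 and chr8:128822411-128822592. At the second of these, SMARCA4 had 23 fragments in WT, 23 in DBDmut, 13 in delIDR1 and 11 in CBR, and no peak in DDX4 or Empty. SMARCC1 had 39 in WT, 32 in DBDmut, 21 in CBR, 12 in delIDR1 and 12 in DDX4. DBDmut therefore matched WT in SMARCA4 fragments at this second site, at an estimated SMARCA4 depth of 0.916 against 1.53 fragments per kb. The SMARCA4 fold there was lower in DBDmut, 9.59 against 10.4 in WT. The rank was 2146 of 15207 in DBDmut and 1113 of 12949 in WT. At the first site of the pair the SMARCA4 fold was higher in DBDmut, 9.19 against 8.64 in WT. The H3K27ac peak over both sites held 199 fragments in WT, 212 in DBDmut, 88 in CBR, 150 in delIDR1 and 133 in DDX4, and 56 and 103 in Empty 1 and Empty 2. This element was acetylated in Empty cells without any BAF peak.

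The site at 24.9 kb, chr8:128773093-128773299, lies between the MYC and PVT1 starts. WT had 12 SMARCA4 and 31 SMARCC1 fragments there, DBDmut 8 and 19, and CBR 11 and 11. DDX4 had 10 SMARCC1 fragments and no SMARCA4 peak, and delIDR1 had neither. H3K27ac was called in all 7 libraries, with 165 fragments in WT, 91 in DBDmut, 82 in DDX4, 70 in delIDR1, 41 in CBR, and 67 and 71 in Empty. The WT acetylation peak, with a rank of 225 of 50885, was the second of the locus by q-value.

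The WT H3K27ac peak of highest -log10 q stood at 373.0 kb, chr8:129121111-129121893, over the WT SMARCA4 peak at chr8:129121221-129121564. There WT had 28 SMARCA4 and 67 SMARCC1 fragments, and 178 H3K27ac fragments with a rank of 178 of 50885. All 4 mutants had SMARCC1 there, with 27 fragments in DBDmut, 23 in CBR, 22 in delIDR1 and 10 in DDX4. SMARCA4 had 19 in DBDmut, 18 in delIDR1 and 13 in CBR, and no peak in DDX4. H3K27ac had 128, 109, 93 and 72 fragments in DBDmut, delIDR1, CBR and DDX4, and 56 and 68 in Empty. The only BAF peak in Empty was a SMARCA4 peak of 7 fragments in Empty 2, which overlapped the WT peak by 9 bp and had its summit 403 bp away. By the distance between summits this site would count as gained, and the number of gained sites would be 14.

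The site at 441.0 kb, chr8:129188810-129189418, was strong in Empty cells as well as in WT. In Empty 1 it had 39 SMARCA4 fragments, a rank of 219 of 5567, and no SMARCC1 peak. In Empty 2 it had 49 SMARCC1 fragments and no SMARCA4 peak, so each Empty replicate held 1 subunit and not the same one. The antibody of each Empty library is as labelled, and a mix-up of labels could not be checked from these lists. WT had 32 SMARCA4 and 70 SMARCC1 fragments, DBDmut 19 and 32, CBR 19 and 31, and delIDR1 5 and 14. DDX4 had 11 SMARCC1 fragments alone. H3K27ac was highest in Empty, with 208 fragments in Empty 1 and 165 in Empty 2, then 148 in WT, with 99 in DBDmut, 71 in CBR, 44 in delIDR1 and 36 in DDX4. In Empty 1 that acetylation peak ranked 76 of 36348.

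At 118.3 kb, 59.8 kb beyond the PVT1 start, acetylation was strong in every library and BAF was variable. H3K27ac had 118 fragments in Empty 1, 449 in Empty 2, 237 in WT, 193 in DBDmut, 263 in DDX4, 149 in CBR and 141 in delIDR1. WT lay among the mutants, and Empty 2 was also the deepest library. SMARCA4 had 15 fragments in WT, 17 in DBDmut, 8 in delIDR1 and 13 in DDX4. SMARCC1 had 26 fragments in Empty 2, 50 in WT, 31 in DBDmut and 15 in delIDR1. In CBR a SMARCC1 peak of 16 fragments lay beside the WT SMARCA4 peak without touching it.

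The other gained sites held 6 to 15 SMARCA4 fragments in WT. At 109.5 kb WT had 12 SMARCA4 and 26 SMARCC1 fragments and DBDmut 10 and 13. At 154.0 kb WT had 11 and 20, and DBDmut 7 and 10. At 233.5 kb WT had 12 and 25, DBDmut 10 and 18, and CBR 11 SMARCA4 fragments alone. No BAF peak of delIDR1 or DDX4 was called at these 3 sites. At 213.8 kb WT had 12 and 22, and DBDmut 4 SMARCA4 fragments alone, while at 116.0 kb WT had 15 and 31 and DBDmut 17 SMARCC1 fragments alone. At 7.18 kb the only mutant peak was a SMARCC1 peak of 9 fragments in delIDR1, beside 8 and 18 fragments in WT. The rightmost sites, at 432.5 and 447.2 kb, had 6 and 7 SMARCA4 fragments and 13 and 10 SMARCC1 fragments in WT, with 7 and 4 SMARCC1 fragments in DBDmut. At 83.9 and 91.5 kb no mutant had a peak of either subunit over the WT site, and WT itself had only 9 and 8 SMARCA4 fragments.

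Counted over the 13 gained sites, DBDmut had both subunits at 6, against 35.5% of all gained sites of the WT list. CBR had both at 3 (5.5%), delIDR1 at 1 (14%) and DDX4 at none (0.479%). At least 1 subunit was present at 10 of 13 in DBDmut (60.6%), at 4 in CBR (16%), at 3 in delIDR1 (32.8%) and at 2 in DDX4 (6.11%). All of these shares were within counting error of the whole list. The 3 CBR sites with both subunits were the pair near the PVT1 start and the site at 24.9 kb, and their exact 95% interval was 5.04% to 53.8%. The delIDR1 site was the one at 74.15 kb.

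At most gained sites acetylation was already called in Empty cells. H3K27ac was called in Empty 1 at 6 of the 13 (12.9% of all gained sites), in Empty 2 at 7 (21.9%), and in at least 1 of them at 9 (25.1%). The last share, 69.2% (38.6 to 90.9), was above the whole-list share, as were the Empty 1 share of 46.2% (19.2 to 74.9) and the Empty 2 share of 53.8% (25.1 to 80.8). The 4 gained sites without an Empty H3K27ac peak over the WT SMARCA4 peak were those at 83.9, 116.0, 432.5 and 447.2 kb. At 83.9 and 116.0 kb an Empty 2 H3K27ac peak, of 26 and 94 fragments, did meet the WT H3K27ac peak over the site. Only the sites at 432.5 and 447.2 kb thus had a WT H3K27ac peak that no Empty peak met. H3K27ac met 13 of 13 gained sites in WT (89.3%), 12 each in DBDmut (72.4%) and delIDR1 (65.5%), 8 in CBR (26.6%) and 9 in DDX4 (26.9%). In CBR and DDX4 the shares of 61.5% (31.6 to 86.1) and 69.2% (38.6 to 90.9) exceeded those over the whole list. In delIDR1, acetylation was called at 12 of the 13 sites while BAF was called at 3. Both of these shares were within counting error of the whole list. The delIDR1 SMARCC1 library was the shallowest for that antibody, so BAF absence there and a level below detection cannot be told apart.

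Acetylation peaks outnumbered BAF peaks in every library and did not follow the order of the BAF peaks. H3K27ac peaks numbered 26 in Empty 1, 92 in Empty 2, 54 in WT, 35 in DBDmut, 46 in CBR, 28 in delIDR1 and 42 in DDX4. They covered 11.8, 36.9, 29.8, 23.1, 17.2, 16.2 and 21.0 kb of the 600 kb. Empty 2, the deepest library, had the most and Empty 1 the fewest, so by number alone the 2 Empty replicates bracketed every construct. Per 10000 peaks of the whole list the numbers were 7.15, 9.99, 10.6, 8.94, 11.2, 8.82 and 11.6, in the same order of libraries. On that scale Empty 2 lay below WT, CBR and DDX4. In lists of equal length the numbers were 21, 34, 37, 31, 36, 28 and 39, in the same order of libraries. There WT lay between CBR and DDX4.

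Of the 54 WT H3K27ac peaks, 15 met no peak of either Empty replicate, against 40% of the whole list, and 27.8% here (exact 95% interval 16.5 to 41.6). Empty 2 met 37 (56.9%) and Empty 1 met 17 (42.2%). Without Empty 2 the number with no Empty peak was 37. DBDmut met 33 (60.9%), delIDR1 28 (51.8%), CBR 30 (42.7%) and DDX4 30 (49%), and all 4 shares were within counting error of the whole list.

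The 15 WT H3K27ac peaks without an Empty peak were the weaker ones, with a median -log10 q of 8.80 (range 2.65 to 32.7). The 24 peaks met in 1 Empty replicate had a median of 18.0, and the 15 met in both had 60.7. The same medians over the whole WT list are not given, so whether this order is particular to the locus was not tested. DBDmut met 6 of the 15 peaks absent from Empty (41.2%), delIDR1 3 (33.1%), CBR 2 (7.7%) and DDX4 1 (7.5%). Of the 15 present in both Empty replicates, DBDmut met 14 (87.7%), delIDR1 13 (77.7%), CBR 12 (79.7%) and DDX4 14 (91.6%). The mutants ranged from 1 to 6 among the peaks absent from Empty and from 12 to 14 among the shared ones, and each share was within counting error of that over the whole list.

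**Figure D5:**
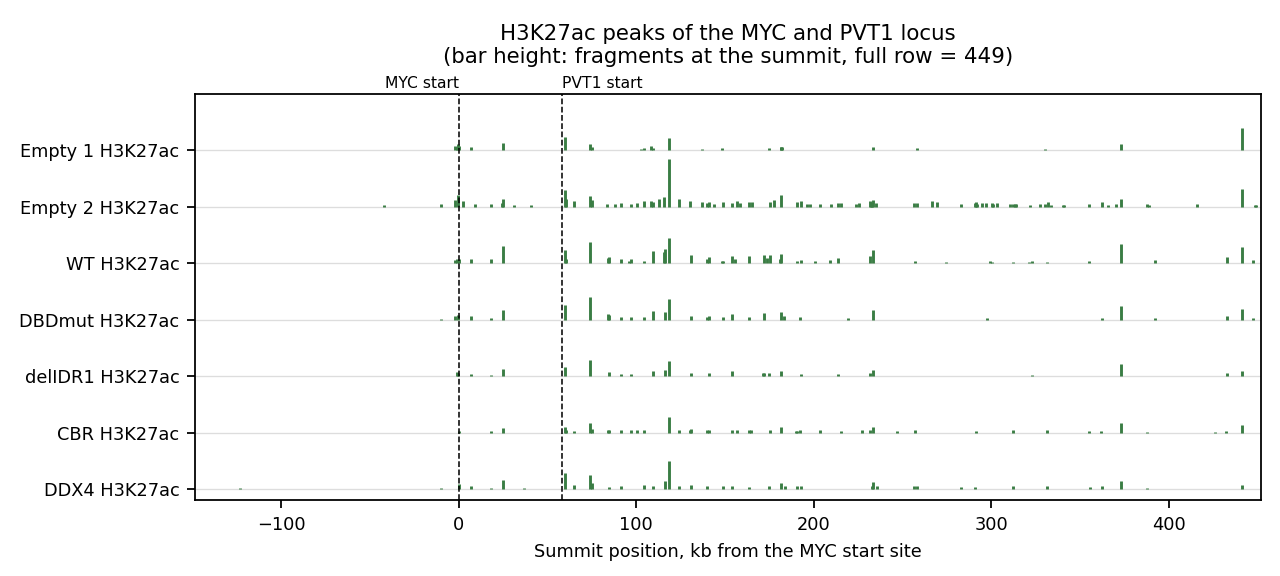
H3K27ac peaks along the locus, 1 row per library, against the distance from the MYC start in kb; each bar is 1 peak, placed at its summit, and its height is the number of fragments there on a scale where 449 fills a row. Counts run from 26 peaks in Empty 1 to 92 in Empty 2, with 54 in WT.

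The 5 WT H3K27ac peaks of highest q among those without an Empty peak lay at 84.5, 172.1, 391.9, 432.5 and 447.2 kb. DBDmut met all 5, delIDR1 3, CBR 2 and DDX4 1. The peak at 432.5 kb held 56 fragments in WT, 36 in DBDmut, 34 in delIDR1 and 11 in CBR. The one at 84.5 kb held 61 in WT, 46 in DBDmut, 23 in CBR, 38 in delIDR1 and 22 in DDX4. At 391.9 and 447.2 kb only WT, with 27 and 34 fragments, and DBDmut, with 19 and 14, had a peak. They were picked from the 15 peaks above by their WT values, so the counts describe these 5 only.

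Merging the H3K27ac peaks of all libraries gave 114 regions, of which 9 were found in 7 of 7 libraries (9.12% of merged regions over the whole genome) and 54 in a single one (56.9%). Of those 54, 36 belonged to Empty 2 (62.3%) and 9 to WT (12.6%), and all 4 shares were within counting error of the genome-wide ones. The regions common to all libraries were those at the MYC and PVT1 promoters and at 24.9, 74.2, 118.3, 181.6, 233.6, 373.0 and 441.0 kb. Among 18 regions of both Empty replicates, 5 had no WT peak (18.8%), at -10.1, 108.5, 136.9, 258.0 and 330.3 kb. The region at -10.1 kb, upstream of MYC, was also found in DBDmut and DDX4.

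The share of acetylation peaks that met a BAF peak of the same cells was higher in WT than in either Empty replicate, as it was over the whole lists. A BAF peak met 27 of the 54 WT H3K27ac peaks of the locus (38.1% of the whole list). In Empty 1 it met 6 of 26 (28.8%), and in Empty 2 7 of 92 (15.2%). The mutants had 13 of 35 in DBDmut (39.7%), 6 of 46 in CBR (23.3%), 7 of 28 in delIDR1 (29%) and 6 of 42 in DDX4 (27.3%). The WT share of 50% had an exact 95% interval of 36.1% to 63.9%, which holds the whole-list share. The shares of Empty 1 and of the mutants were also within counting error of their lists. That of Empty 2, 7.61% (3.11 to 15.05), had its upper end just below its list.

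SMARCC1 peaks without a SMARCA4 peak were also common in WT cells. The WT SMARCC1 library was the deeper one, at 3.28 against 1.53 fragments per kb for SMARCA4. Absence of SMARCA4 and a level below detection can therefore not be told apart. Of the 29 WT SMARCC1 peaks, 12 met no WT SMARCA4 peak, against 60.2% of the whole list (41.4%, exact 95% interval 23.5 to 61.1). Of these 12, 11 met a WT H3K27ac peak (67.6%). Both shares were within counting error of the whole list. The 12 peaks included both peaks near the PVT1 start and the one at 135 bp from the MYC start. The strongest of the others by fold stood at 391.9 kb, with 20 fragments.

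Merging all SMARCA4, SMARCC1 and HA peaks gave 39 regions, of which 19 came from a single library (53.1% of such regions over the whole genome). A BAF peak of WT was in 30, of DBDmut in 15, of CBR in 10, of Empty 2 in 8, of delIDR1 in 7, of DDX4 in 7 and of Empty 1 in 5. WT alone held 12 of its 30 regions (34.2%), 8 with SMARCC1 only, 2 with SMARCA4 only and 2 with both. An Empty peak was lacking at 23 of the WT regions (58.9%), of which DBDmut shared 10 (33.7%), CBR 3 (11%), delIDR1 2 (15.3%) and DDX4 2 (4.46%). Regions with neither a WT nor an Empty peak numbered 3 of 10 in CBR (36.1%), 1 of 15 in DBDmut (27.4%), 1 of 7 in DDX4 (16.9%) and 0 of 7 in delIDR1 (15.9%). All of these shares were within counting error of the genome-wide ones. The most shared region, at 441.0 kb, had a peak in 11 of the 15 BAF and HA libraries, and those at the MYC start, 118.3 kb and 373.0 kb in 10 each.

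Read the other way, most BAF peaks of the mutants in the locus coincided with WT peaks. A WT SMARCA4 peak was lacking at 3 of 13 DBDmut peaks (54.5% of that list), 0 of 4 in delIDR1 (37%), 2 of 8 in CBR (61.7%) and 2 of 3 in DDX4 (54.1%). For SMARCC1 the numbers without a WT peak were 2 of 14 (34.5%), 0 of 8 (24.7%), 1 of 8 (35.4%) and 1 of 5 (27%). Those for H3K27ac were 5 of 35 (23%), 1 of 28 (19%), 13 of 46 (45.9%) and 13 of 42 (35.9%). For SMARCA4 the DBDmut and CBR shares of 23.1% (exact 95% interval 5.04 to 53.8) and 25% (3.19 to 65.1) stood beside these whole-list shares, the DBDmut one with its upper end below and the CBR one with its upper end above. For H3K27ac the delIDR1 and CBR shares, 3.57% (0.0904 to 18.3) and 28.3% (16.0 to 43.5), also had their upper ends below. The other shares of this paragraph were within counting error of their lists.

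Empty SMARCA4 and SMARCC1 peaks of the locus were few, and those of H3K27ac in Empty 1 mostly recurred in Empty 2. The 1 Empty 1 SMARCA4 peak met no Empty 2 peak (34.8% of that list), and none of the 3 Empty 2 SMARCA4 peaks met Empty 1 (62.7%). For SMARCC1, 3 of 5 Empty 1 peaks (33.7%) and 5 of 6 Empty 2 peaks (43.7%) had no partner in the other replicate. For H3K27ac, 23 of 26 Empty 1 peaks had a partner in Empty 2 and 3 had none (21.6%), while 71 of 92 Empty 2 peaks had none in Empty 1 (75.3%), at depths of 4.40 and 14.5 fragments per kb. Each of these shares was within counting error of its whole list. A WT partner was lacking for 0 of 1 and 2 of 3 Empty SMARCA4 peaks (39.1% and 58.9%), 2 of 5 and 2 of 6 SMARCC1 peaks (39.2% and 42.7%), and 6 of 26 and 55 of 92 H3K27ac peaks (32% and 71.2%), in Empty 1 and Empty 2. Of 11 merged Empty BAF regions, 4 had no WT peak of either subunit (52.2%).

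HA, which marks the tagged DDX4 hybrid itself, had 2 peaks in the locus. The first held 11 fragments at -158 bp from the MYC start, chr8:128748112-128748362, with a rank of 2949 of 5390. The second held 12 fragments at 118.3 kb, chr8:128866347-128866808, with a rank of 2510. Both met a DDX4 H3K27ac peak, as did 77.1% of all HA peaks, with 44 and 263 acetylation fragments. The peak at 118.3 kb met a DDX4 SMARCA4 peak of 13 fragments, and the one at the MYC start met no DDX4 BAF peak, so 1 of 2 met BAF (66.9%). No HA peak was called at 373.0 or 441.0 kb, where DDX4 had SMARCC1 fragments of 10 and 11, and the HA library was the shallowest of the series.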

How the data were processed

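CUT&Tag was done on AN3CA cells with 7 libraries each for SMARCA4, SMARCC1 and H3K27ac and 1 for HA. Titles gave the construct and the antibody of each. A commercial kit protocol was followed, per the labels' protocols. The submitters' processing notes name hg19 and bcl2fastq without a version. How reads were aligned and deduplicated, which program called peaks and whether a control was used is not given in the sources.

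Each library had 1 deposited peak list in 10 columns, so calling was done library by library without pooling. The deposited fold enrichment is a ratio of the summit pileup to local background, with 1 added to both. Columns of -log10 p-values and -log10 q-values were deposited too, beside a score of about 10 times the -log10 q. These values are the authors' and describe a peak within its own list. Total fragment counts are not in the lists. Pileup and background were solved from the fold and the p-value, read as a Poisson tail, and in every library at least 99.9% of pileups came out whole, with an error in -log10 p under 0.001. The lowest background divided by the shortest peak length gave the estimated depth in fragments per kb.

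The autosomes (1 to 22) and X were kept, and 1 bp of overlap counted as meeting. With 1 library per construct no test over samples was made. Shares have exact and rates Wilson 95% intervals, which cover counting error only, since PCR copies and neighbouring sites are not independent. The sites named were every WT BAF site, every BAF or HA peak within 2.5 kb of either start, the 5 most shared BAF regions, and the 5 strongest WT H3K27ac peaks overall and without an Empty peak. Other sites were named after their values were seen. The locus, its window and these rules were chosen with earlier results of these data known. Alternatives tried were peaks past a -log10 q of 5, lists of equal length, a 50% overlap relative to the shorter peak, a summit distance under 250 bp, a window 100 kb wider or narrower on each side, and leaving out an Empty replicate. Those for gained BAF sites were chosen after seeing the data. Python 3.11.15 with pandas 2.3.3, numpy 2.4.6, scipy 1.17.1 and matplotlib 3.10.9 was used, and code was tested on simulated data. Genes other than MYC and PVT1 and positions in exons or introns were not analysed here.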

Additional observations from a re-analysis of the deposited data

How the results depend on the processing

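Of 122 alternative counts over 20 results, 107 stayed within 1.5 times of the reported count. In lists of equal length the WT SMARCA4 peaks fell to 8 and the WT SMARCC1 peaks to 12, of which 7 and 10 had no Empty peak. There the WT BAF sites numbered 8 and the gained ones 7. The WT SMARCA4 peaks met by DBDmut, delIDR1 and DDX4 were then 5, 2 and 0, and the WT SMARCC1 peaks met by DBDmut and delIDR1 were 7 and 5; fewer peaks enter by construction. The WT SMARCA4 peaks met by delIDR1 were 2 both at a -log10 q of at least 5 and in the narrower window, where DDX4 met 2 WT SMARCC1 peaks. Leaving out an Empty replicate gave 17 to 37 WT H3K27ac peaks without an Empty peak, the higher value without Empty 2. It gave 18 SMARCA4 peaks, 25 to 26 SMARCC1 peaks and 14 to 15 gained sites. No paired analysis was possible because only Empty has replicate numbers and no result comes from a test. Peaks of few fragments, such as the WT SMARCA4 peaks of 6 to 8, are near the smallest that a list of this depth can hold (4 fragments in WT SMARCA4), so absence elsewhere and a level below detection cannot be told apart. Each construct is 1 library, and counting intervals do not cover variation between cultures.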

Other observations

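The flanks of the window were nearly empty of peaks. In the 100 kb before it, only 1 WT H3K27ac, 1 Empty 2 H3K27ac and 1 HA peak were called. In the 100 kb after it, no SMARCA4 peak was called in any library, and SMARCC1 had 1 peak in DBDmut and 1 in Empty 2. H3K27ac had 6 peaks there in Empty 2, 2 in WT, 1 in DBDmut and 1 in CBR. The tallest of the WT peaks there, by q-value, lay 464.4 kb from the MYC start with a -log10 q of 17.7, and the DBDmut peak at the same distance had 12.9. Both fall outside the window, 12.7 kb beyond its right end.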
